A study of Homo sapiens with 12 samples.

Results

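The genes described here are 53 that carry cells through the G1/S transition and copy their DNA, measured in MDA-MB-231 cells after 4 h with 10 nM AZD0095. The members are 56 symbols chosen for their function, with earlier results of these data known. Of these, 53 are listed in all 12 libraries, out of 6777 genes tested. CCNE1 (cyclin E1), ORC1 and GINS3 are not listed, and every listed value is above 1 FPKM (a read density per gene length, relative to the reads mapped). MDA-MB-231 is a human breast cancer cell line of the triple-negative class, and AZD0095 blocks MCT4, a transporter that carries lactate out of cells. The treated cells received 10 nM AZD0095 for 4 h and the control cells received the solvent DMSO for 4 h, all in the same line and medium with serum. RNA-seq measured transcript levels in 3 AZD0095 and 3 DMSO libraries. Ribosome profiling, which sequences mRNA fragments protected by ribosomes, gave 3 AZD0095 and 3 DMSO libraries from lysates of cycloheximide-treated cells, freed of nuclei and mitochondria. Nothing in the labels states that the replicates came from different cultures, so each p-value reflects library-to-library spread that may be technical.

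Cells commit to DNA replication when cyclin D with CDK4 or CDK6, and then cyclin E with CDK2, phosphorylate the retinoblastoma protein and release E2F transcription factors. E2F activates genes for origin licensing, in which ORC, CDC6 and CDT1 load the MCM helicase, and for the polymerases, clamp, nucleotide enzymes and chromatin factors that act at the fork. Many of these genes are known to peak in late G1 or S phase, so in a growing line their RNA depends on how many cells are in those phases. In bulk libraries such as these, fewer cells in S phase and less RNA per cell cannot be told apart.

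Promoters of many replication genes are known to carry E2F sites, and letters of that kind were more frequent among the members than among all promoters. The RefSeq promoter table of GRCh38.p14, with 250 bases before and 50 after each start of transcription, held an entry for 44 of the 53 members. The E2F letters TTTCGCGC, TTTGGCGC or TTTCCCGC, read on either strand, stood in 20 of the 44 (45.5%), against 2.79% of all 27305 promoters in the table and 5.50% of the 5655 tested genes with an entry. TTTCCCGC was in 10 member promoters, TTTGGCGC in 8 and TTTCGCGC in 5. The letters CCAAT, a common promoter element read on either strand, stood in 26 member promoters (59.1%) and in 35.7% of all promoters. A match is a description of letters and not of a bound site. The stretches below are shown because they hold these letters in genes named in the results and in helicase genes with several copies. They run 5′ to 3′ on the gene's strand, and the E2F letters, on either strand, are in capitals. They lie at chr19:4909457-4909524 on the plus strand for UHRF1, chr1:35769949-35770013 on the minus strand for CLSPN, chr14:49688185-49688249 on the minus strand for POLE2, chr17:40287856-40287908 on the plus strand for CDC6, chr20:33686368-33686435 on the minus strand for E2F1, chr3:127598383-127598440 on the plus strand for MCM2 and chr2:135876492-135876625 on the minus strand for MCM6.
UHRF1: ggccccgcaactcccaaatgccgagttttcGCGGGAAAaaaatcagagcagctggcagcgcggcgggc
CLSPN: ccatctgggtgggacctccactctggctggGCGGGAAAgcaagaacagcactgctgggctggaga
POLE2: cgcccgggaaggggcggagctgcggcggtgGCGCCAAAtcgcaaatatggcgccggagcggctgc
CDC6: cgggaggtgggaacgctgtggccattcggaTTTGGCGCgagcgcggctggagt
E2F1: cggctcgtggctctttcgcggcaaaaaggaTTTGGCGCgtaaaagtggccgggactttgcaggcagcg
MCM2: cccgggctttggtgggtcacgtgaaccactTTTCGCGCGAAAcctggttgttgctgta
MCM6: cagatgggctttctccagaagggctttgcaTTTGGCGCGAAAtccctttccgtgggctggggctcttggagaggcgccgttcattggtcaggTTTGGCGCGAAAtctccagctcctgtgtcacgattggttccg

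The UHRF1 stretch lies inside the span given for the gene (chr19:4903080-4962154), so the start of transcription used for it is not the first base of that span. In UHRF1, CLSPN and POLE2 the letters lie on the opposite strand and appear as their reverse complement. CDC6 and E2F1 carry TTTGGCGC on the gene's strand. In MCM2 the capitals are TTTCGCGCGAAA, a run that reads the same on both strands, so TTTCGCGC is found once on each and the 2 matches overlap. MCM6 has a pair of runs, TTTGGCGCGAAA each, with 1 match to TTTGGCGC and 1 to TTTCGCGC on opposite strands in each run. MCM2, MCM3, MCM6 and MCM7, all subunits of the replicative helicase, were the 4 members with 2 or more matches. Of the 26 matches in the 20 promoters, 18 began within 60 bases of the start, and 17 members had one there.

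**Figure D1:**
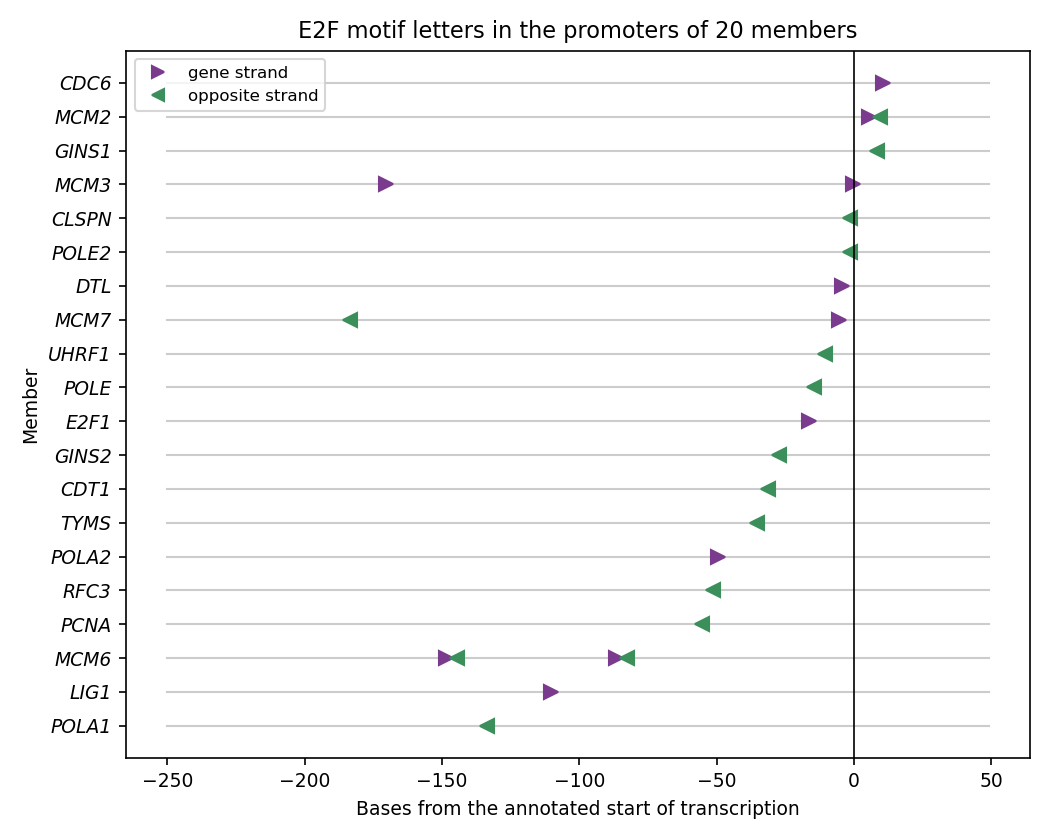
Position of each E2F letter match in the promoters of the 20 members that hold one; the x axis gives bases from the annotated start of transcription (0) and each row is a gene. Arrowheads mark matches on the gene's strand and on the opposite strand; 18 of 26 begin within 60 bases of the start.

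The labelled line was checked against marker genes. Of 7 markers of mesenchymal-like breast lines, 6 are listed, with VIM (vimentin) at 2743 FPKM in AZD0095 and 2522 FPKM in DMSO RNA. Of 11 luminal, receptor or epithelial markers 5 are listed. They are KRT8, KRT18 and KRT19, keratins of luminal epithelium, at 249, 224 and 160.2 FPKM in AZD0095 RNA and 232, 217 and 129 FPKM in DMSO RNA, with EPCAM and ERBB2 at 12.1 and 19.5 FPKM in AZD0095 and 10.1 and 16.8 FPKM in DMSO RNA. These listed keratins go against a purely mesenchymal marker profile. ESR1, PGR, GATA3 and FOXA1, which mark luminal or hormone receptor positive cells, are not listed. CDH1, an epithelial marker, and MUC1 are not listed either, nor is the mesenchymal-like marker SPARC. Replicate libraries correlated at 0.989 to 0.997 in RNA, and at 0.854 to 0.920 in footprints (log2 values over all genes). The total footprint reads per library were not given and were inferred from the FPKM values as the total that each library was scaled by. These implied totals were 141122, 217361 and 501308 in the AZD0095 libraries and 123859, 107087 and 192302 in the DMSO libraries. No common read unit was found in the RNA values, so RNA depth is unknown.

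The RNA of most G1/S and replication genes was close to its control level after 4 h, and the differences seen were small. UHRF1, UNG, CCNE2 and CCND1 fell and CDK2 and CCND3 rose, with log2 differences between -0.67 and 0.28. Of the 53 members, 4 were called lower (7.55%), beside 3.01% of all 6777 genes. A further 2 were called higher (3.77%), beside 5.03% of all genes. The call is a limma adjusted p under 0.05 on log2(FPKM + 1), with Benjamini-Hochberg adjustment over all genes, and 47 members did not pass. The number of members called was 11, 1 and 2 without AZD0095 replicate 1, 2 or 3, and 2, 0 and 3 without DMSO replicate 1, 2 or 3. The number of all genes called, 545 with all libraries, was 1112, 116 and 214 in the same AZD0095 fits and 280, 100 and 249 in the same DMSO fits. A replicate block, which assumes that equal numbers pair the libraries, called 15 members (2 higher, 13 lower). It called 1622 of all genes (856 higher, 766 lower). Differences throughout are AZD0095 minus DMSO on that scale, which understates the change of low genes.

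The members as a list leaned below zero by a small amount. Their median RNA difference was -0.07, against 0.01 over all genes, and 43 of 53 values were negative (81.1%), against 47.7% of all genes. Summed over the members, RNA came to 3063, 3002 and 2966 FPKM in the AZD0095 libraries and to 3285, 3233 and 3137 FPKM in the DMSO libraries. The 3 AZD0095 sums lie below the 3 DMSO sums. The share of the library's FPKM behind those sums was 0.678, 0.654 and 0.640% with AZD0095 and 0.735, 0.704 and 0.690% with DMSO. All 3 AZD0095 libraries lay below all 3 DMSO libraries for 11 members (20.8%), beside 11.5% of all genes. They lay above for CCND3, CDK2 and CHAF1B, 5.66% of members, beside 17.7% of all genes. At an unadjusted limma p under 0.05, 11 members were lower (20.8%), beside 10 percent of all genes. The list was named with earlier results of these data known, so these counts describe it and are not tested.

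**Figure D2:**
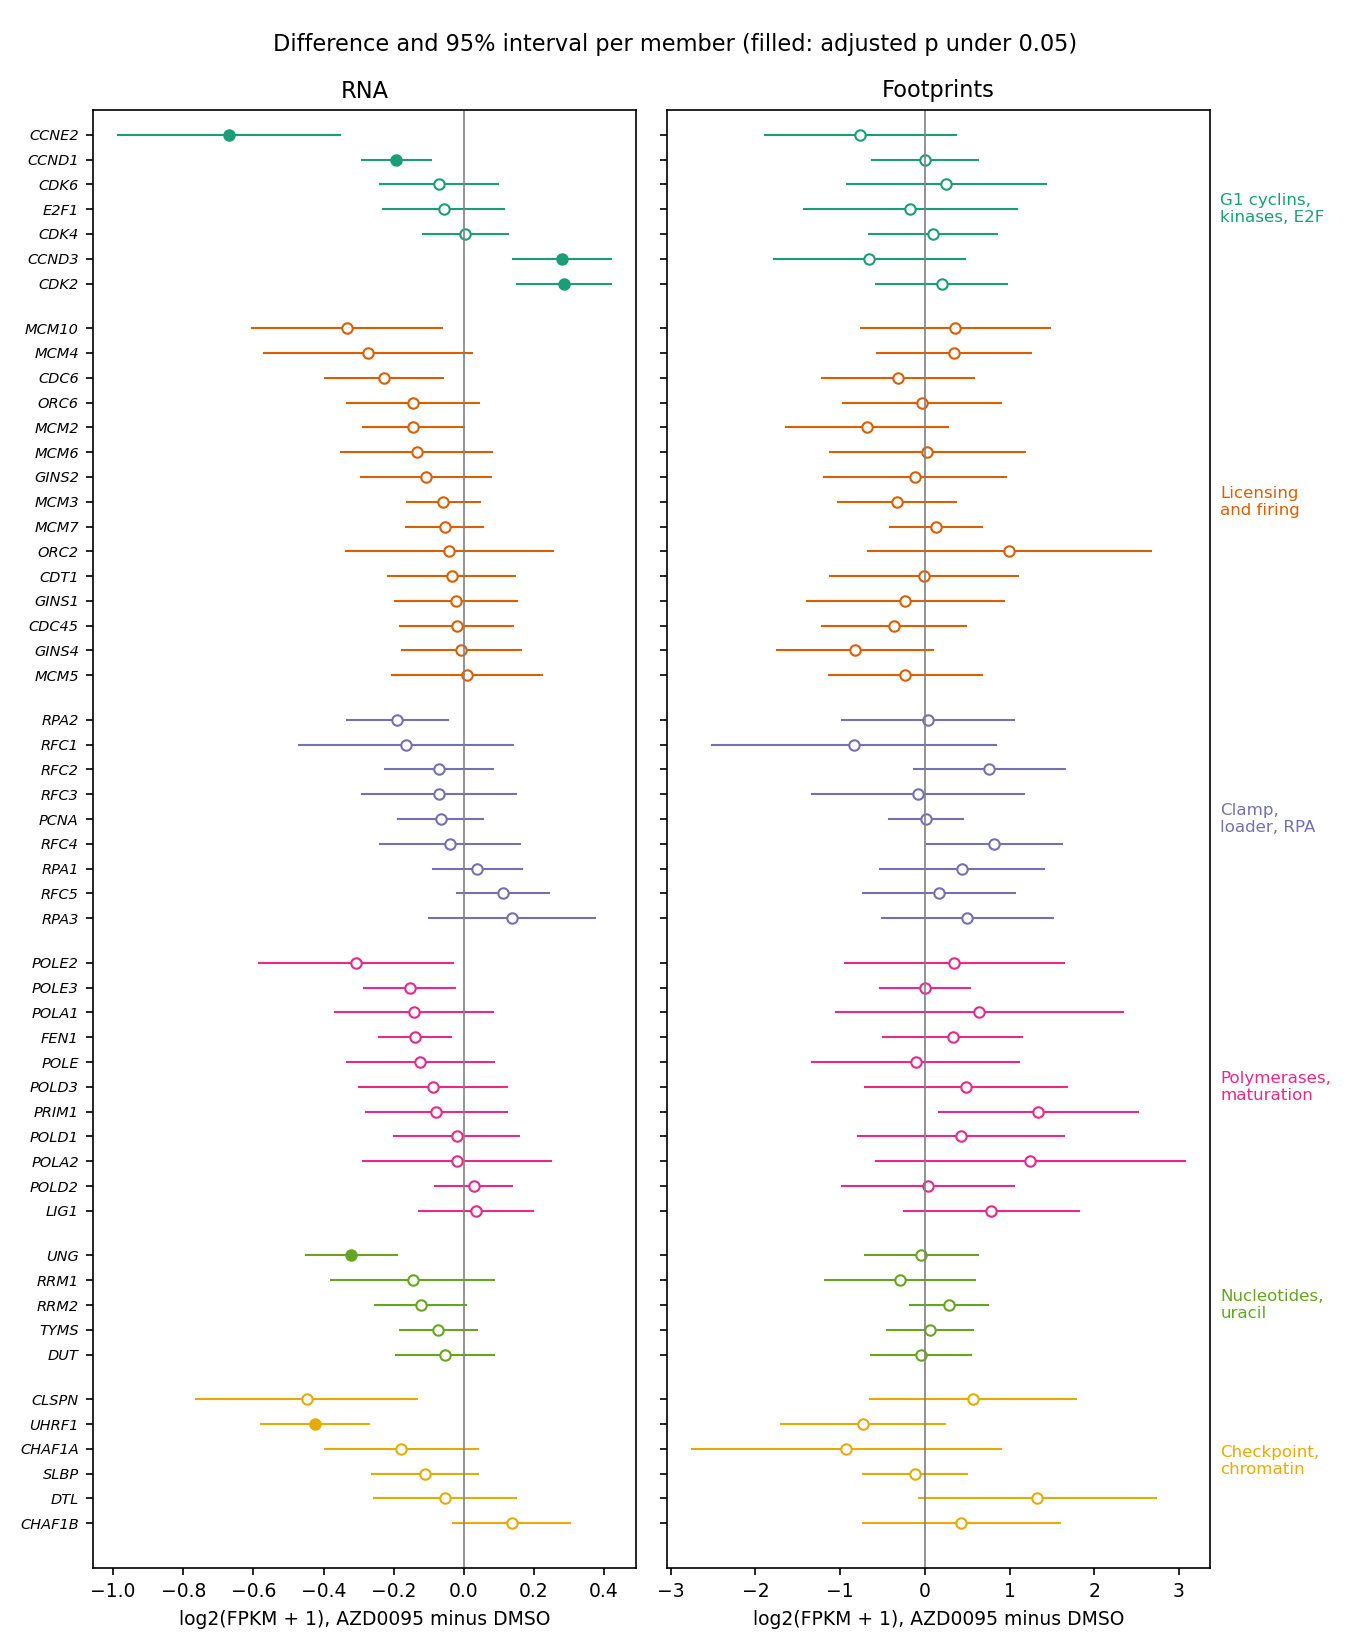
Difference (AZD0095 minus DMSO, log2(FPKM + 1)) with its 95% interval for each of the 53 members in RNA (left) and footprints (right), coloured by role; filled points have a limma adjusted p under 0.05. In RNA 43 of 53 points are left of 0 and 6 are filled; in footprints the intervals are wider and none is filled.

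Among the G1 cyclins and kinases, the E-type cyclin gene and CCND1 fell while CCND3 and CDK2 rose. CCNE2, on chr8 at 94880224 to 94896693 (GRCh38), encodes cyclin E2, an activator of CDK2. Its RNA was 15.6, 11.8 and 10.6 FPKM in the AZD0095 libraries and 23.0, 19.8 and 18.8 FPKM in the DMSO libraries. Every AZD0095 value is below every DMSO value, and replicate 1 is the highest of its group in both. The difference was -0.67 ± 0.14 (SE, n = 3 each; limma adjusted p = 0.026), the largest fall among the members. CDK2 itself (chr12:55966830-55972789), the kinase that cyclin E activates, moved the other way. It had 56.6, 62.1 and 58.0 FPKM with AZD0095 and 46.4, 49.1 and 48.9 FPKM with DMSO. The groups do not overlap, and CDK2 was higher by 0.28 ± 0.06 (SE, n = 3 each; limma adjusted p = 0.025).

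The D-type cyclins, which activate CDK4 and CDK6 in response to growth signals, went in opposite directions. CCND1 (chr11:69641156-69654474) was at 155, 157 and 161 FPKM in AZD0095 libraries and at 178, 182 and 179.6 FPKM in DMSO libraries. The libraries within each treatment differ by a few FPKM and the groups are separate. CCND1 fell by 0.19 (SE 0.04, n = 3 each; limma adjusted p = 0.033). CCND3 (chr6:41934933-42050035) was at 71.4, 68.0 and 68.7 FPKM with AZD0095 and at 55.4, 54.4 and 61.3 FPKM with DMSO. All 3 AZD0095 values exceed the highest DMSO value, replicate 3. CCND3 rose by 0.28 (SE 0.06, n = 3 each; limma adjusted p = 0.031). Per gene length CCND1 was the more abundant in each of the 6 RNA libraries. Neither partner kinase was called. CDK4 differed by 0.00 (95% interval -0.12 to 0.12) and CDK6 by -0.07 (-0.24 to 0.10). E2F1, the factor itself, averaged 22.3 ± 1.63 FPKM with AZD0095 and 23.2 ± 0.822 FPKM with DMSO (SD, n = 3 each), and its groups overlap.

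These 4 calls, among 7 listed genes of the group, stand beside 8.04% of all genes. So small a group was not tested, and the 4 calls depend on single libraries. DMSO replicates 1, 2 and 3 and AZD0095 replicates 2 and 3 each ended the calls of CCNE2, CDK2 and CCND1 when left out. The limma adjusted p was then 0.056 to 0.11 for CCNE2, 0.067 to 0.11 for CDK2 and 0.072 to 0.15 for CCND1. The call of CCND3 ended without DMSO replicates 1 and 2 and without AZD0095 replicates 2 and 3, each left out alone, with a limma adjusted p of 0.087 to 0.14. CCND1 also missed the threshold after median centring (limma adjusted p = 0.052) and without a variance trend (limma adjusted p = 0.079).

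**Figure D3:**
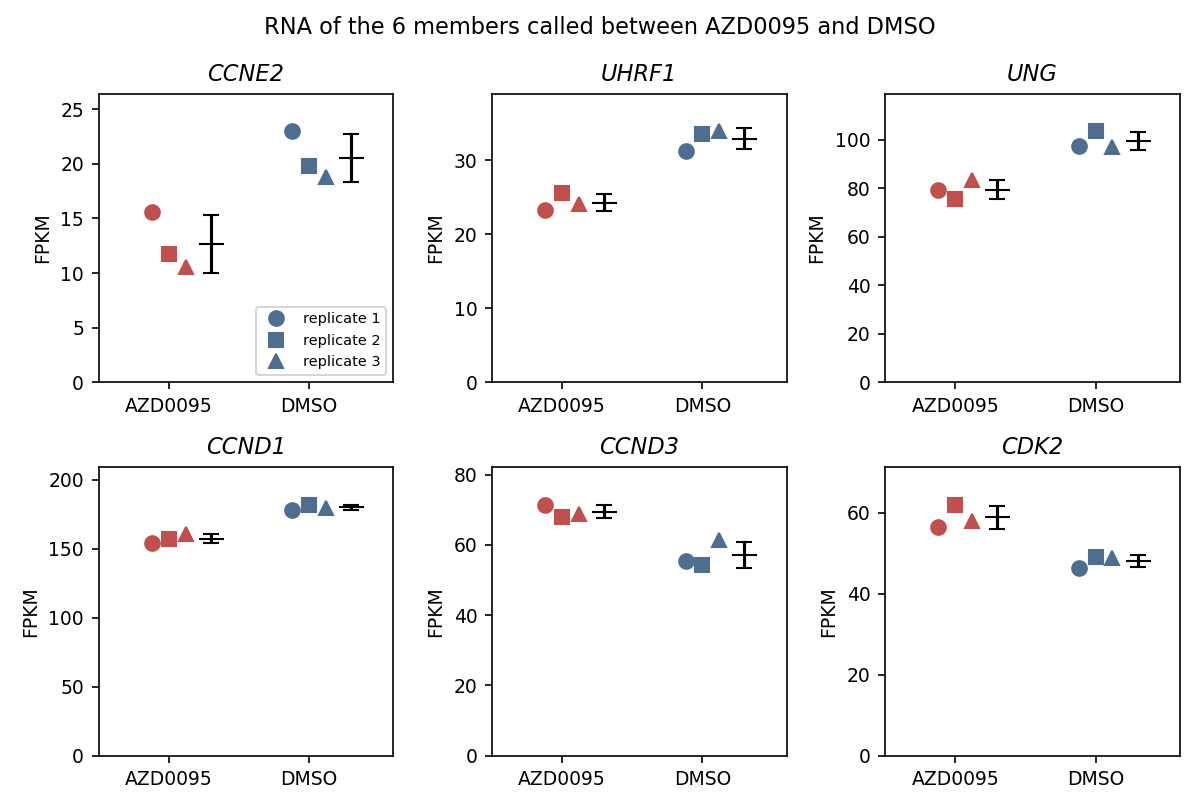
RNA of the 6 called members in FPKM, with AZD0095 libraries left and DMSO libraries right in each panel; marker shapes give the replicate number, and the bar gives the mean and SD of 3 libraries. In CCNE2, UHRF1, UNG and CCND1 all AZD0095 points are below the DMSO points, and in CCND3 and CDK2 all are above.

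Among 15 origin licensing and firing genes limma called 0, beside 8.04% of all genes. At an unadjusted limma p under 0.05 there were 2, both lower. Over all genes that share was 24.2% in either direction and 10 percent for lower values alone. A count of 2 is too small to be read against these shares. With the replicate block 4 of the 15 passed as lower, beside 766 of all 6777 genes. Of the 15 differences 14 were negative (median -0.06). MCM10, a replication initiation factor, had the largest difference of the group. It was at 18.8, 15.8 and 14.5 FPKM in AZD0095 libraries and at 23.4, 20.9 and 18.2 FPKM in DMSO libraries. AZD0095 replicate 1 is above DMSO replicate 3, so the groups overlap, and the difference was -0.33 ± 0.12 (SE, n = 3 each; limma adjusted p = 0.13). CDC6, the ATPase that loads the helicase with ORC and CDT1, was at 91.9, 81.4 and 76.7 FPKM with AZD0095 and at 102, 97.9 and 92.9 FPKM with DMSO. Its groups are separate by about 1 FPKM. Its difference of -0.23 ± 0.07 did not pass the adjustment (SE, n = 3 each; limma adjusted p = 0.10).

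The helicase subunits MCM2 to MCM7 had RNA differences between -0.27 for MCM4 and 0.01 for MCM5. MCM7, the highest of the licensing genes, had 124, 128 and 130.5 FPKM with AZD0095 and 131, 129 and 137 FPKM with DMSO, and 1 AZD0095 value lies above the lowest DMSO value. MCM2 had 40.3, 41.4 and 43.2 FPKM with AZD0095 and 43.3, 46.8 and 48.3 FPKM with DMSO. Its groups only just miss each other, and the difference was -0.14 (limma adjusted p = 0.21). MCM4 varied widely, at 88.0, 126 and 114 FPKM with AZD0095 and 120.5, 147 and 127 FPKM with DMSO, with replicate 1 the lowest in both groups. MCM5 was the only one of the 15 with a positive difference, 0.01, and it was -0.12 without both replicate 1 libraries. The loading factor CDT1 differed by -0.03, the helicase activator CDC45 by -0.02, and GINS1, GINS2 and GINS4, which complete the active helicase, by -0.02, -0.11 and -0.01. The origin binding subunits ORC2 and ORC6 differed by -0.04 and -0.14.

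At the fork, the sliding clamp, clamp loader and single-strand binding genes had 0 limma calls among 9. RPA2, which was lower, was the 1 gene at an unadjusted p under 0.05. Over all genes these shares were the 8.04% and 24.2% given above, or 10 percent for lower values alone at the unadjusted threshold. A count of 1 is too small to be read against them. PCNA, the clamp that tethers polymerases to DNA, had the highest RNA of all members. It was at 262, 240.0 and 239 FPKM in AZD0095 libraries and at 261, 265 and 249 FPKM in DMSO libraries. AZD0095 replicate 1 lies among the DMSO values, and the difference was -0.07 (95% interval -0.19 to 0.06). The 3 subunits of replication protein A, which coats single-stranded DNA, had differences of both signs. RPA2 was at 69.5, 67.1 and 67.0 FPKM with AZD0095 and at 84.2, 74.0 and 74.7 FPKM with DMSO. Its groups are separate, with DMSO replicate 1 the highest, and the difference was -0.19 ± 0.06 (SE, n = 3 each; limma adjusted p = 0.11). RPA1 differed by 0.04 and RPA3 by 0.14. The 5 subunits of replication factor C, the clamp loader, lay between -0.16 for RFC1 and 0.11 for RFC5.

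The polymerase, primase and Okazaki fragment genes also had 0 limma calls among 11. The 3 at an unadjusted p under 0.05 were all lower. They stand beside 24.2% of all genes in either direction and 10 percent for lower values alone, and so small a count was not tested. Of the 11 differences 9 were negative, with a median of -0.09. The accessory subunits POLE2 and POLE3 of the leading strand polymerase had larger differences than its catalytic gene POLE (-0.12). POLE2 was at 26.6, 23.5 and 20.6 FPKM with AZD0095 and at 33.1, 30.2 and 25.0 FPKM with DMSO. Replicate 1 is the highest and replicate 3 the lowest in both groups and the groups overlap, with a difference of -0.31 ± 0.12 (SE, n = 3 each; limma adjusted p = 0.17). POLE3 was at 106, 109 and 112 FPKM with AZD0095 and at 129, 119.8 and 115 FPKM with DMSO. The groups are separate and the difference was -0.15 (limma adjusted p = 0.14). FEN1, the flap endonuclease that trims Okazaki fragments, was at 101, 101 and 104 FPKM with AZD0095 and at 113, 112 and 112 FPKM with DMSO. Its libraries agree closely within each treatment and do not overlap between them, with a difference of -0.14 ± 0.04 (SE, n = 3 each; limma adjusted p = 0.10). LIG1, the ligase that seals the fragments, differed by 0.03. POLA1, the catalytic subunit of polymerase alpha, differed by -0.14, its partners POLA2 and PRIM1 by -0.02 and -0.08, and the polymerase delta genes POLD1, POLD2 and POLD3 by -0.02, 0.03 and -0.09.

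Among 5 genes of nucleotide supply and uracil removal, UNG fell and the others did not pass. UNG (chr12:109097597-109110992) encodes uracil-DNA glycosylase, which removes uracil from new DNA. It was at 79.3, 75.3 and 83.4 FPKM with AZD0095 and at 97.5, 103 and 97.0 FPKM with DMSO. The groups are far apart relative to their spread, and UNG fell by 0.32 (SE 0.06, n = 3 each; limma adjusted p = 0.014). Without DMSO replicate 2 its limma adjusted p was 0.088, and without AZD0095 replicate 2 it was 0.075. DUT, the dUTPase that keeps uracil out of DNA, differed by -0.05 (95% interval -0.19 to 0.09). RRM2, the regulated subunit of ribonucleotide reductase, was at 219, 215 and 219 FPKM with AZD0095 and at 256, 232 and 225 FPKM with DMSO. Its groups do not overlap, DMSO replicate 1 is well above the rest, and the difference was -0.12 (limma adjusted p = 0.23). RRM1, its partner, differed by -0.15 and TYMS, which makes thymidylate, by -0.07. TYMS overlaps ENOSF1 on the opposite strand, and the use of strand in counting is not stated.

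In the checkpoint and chromatin group, UHRF1 had the smallest adjusted p of all members. UHRF1 (chr19:4903080-4962154) brings the maintenance DNA methyltransferase to newly copied DNA. Its RNA was 23.2, 25.5 and 24.0 FPKM in AZD0095 libraries and 31.2, 33.6 and 33.9 FPKM in DMSO libraries. The lowest DMSO value is well above the highest AZD0095 value. UHRF1 fell by 0.42 (SE 0.07, n = 3 each; limma adjusted p = 0.0097). Of the libraries left out in turn, only DMSO replicate 2 ended the call (limma adjusted p = 0.065). CLSPN, the claspin gene needed to activate CHK1 at stalled forks, was at 16.7, 13.2 and 12.4 FPKM with AZD0095 and at 23.3, 18.5 and 17.1 FPKM with DMSO. The groups are separate by less than 1 FPKM and replicate 1 is the highest of each, and the difference of -0.45 ± 0.14 missed the threshold (SE, n = 3 each; limma adjusted p = 0.090).

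The other S phase regulators were not called. SLBP, which binds the end of replication-dependent histone mRNAs, had the highest RNA of the group, at 82.2, 73.8 and 70.0 FPKM with AZD0095 and at 81.9, 82.4 and 79.4 FPKM with DMSO. AZD0095 replicate 1 lies among the DMSO values and the difference was -0.11 (limma adjusted p = 0.35). The chromatin assembly factor subunits CHAF1A and CHAF1B differed in opposite directions, by -0.18 and 0.14 (95% intervals -0.40 to 0.04 and -0.03 to 0.30). DTL, the adaptor that marks CDT1 for destruction in S phase, differed by -0.05 in RNA.

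Replicate 1 was the highest RNA library of each treatment in CCNE2, CLSPN, CDC6, MCM10 and POLE2, among others, and the lowest in MCM4 and UHRF1. It was above the mean of replicates 2 and 3 for 62.3% of members with AZD0095 and 66.0% with DMSO. The same shares over all genes were 57.0% and 55.6%. With both RNA libraries of replicate 1 left out, an alternative chosen after seeing the data, 11 members were called. Of these, 9 were lower (17.0%), beside 10.9% of all genes, and 2 were higher (3.77%), beside 9.68% of all genes. The 9 lower members were UHRF1, UNG, CCNE2 and CCND1 with CDC6, MCM10, RFC1, POLE2 and CLSPN, and the 2 higher were CDK2 and CCND3.

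Members with and without the E2F letters had like medians in RNA. The 20 members with the letters had a median RNA difference of -0.07, with 19 negative values and 1 call, UHRF1. The 24 members whose promoter entry holds none of them also had a median of -0.07, with 18 negative values and 2 calls, UNG and CCND3. The 9 members without an entry, which include CCNE2, CCND1 and CDK2, had a median of -0.09. Over all genes 47.7% of the differences were negative and 8.04% were called, and counts of 1 or 2 calls are too small to be read against that. These medians describe the members, and the difference between them was not tested.

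Other genes of the same pathways were called about as often as all genes. Over 4 further lists, 7 of 102 listed genes were called (6.86%), beside 8.04% of all genes. Of 38 further G1/S regulators 25 are listed, and 2 rose and 1 fell. CDKN1A, the p21 inhibitor of CDK2, was at 55.6, 54.1 and 57.0 FPKM with AZD0095 and at 43.4, 44.1 and 47.4 FPKM with DMSO. All 3 AZD0095 libraries are higher, and CDKN1A rose by 0.30 (limma adjusted p = 0.020). CDKN2D, the p19 inhibitor of CDK4 and CDK6, rose by 0.46 (limma adjusted p = 0.045), and CDC25A, the phosphatase that activates CDK2, fell by 0.37 (limma adjusted p = 0.018). CDKN1B, the p27 inhibitor, and RB1, the retinoblastoma gene, differed by -0.04 and -0.08 and were not called.

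Of 45 further initiation and fork genes 35 are listed, and their median RNA difference was -0.11, with 27 negative values. Only CDC7, the kinase that fires licensed origins by phosphorylating MCM proteins, was called. It was at 10.4, 8.19 and 7.16 FPKM with AZD0095 and at 16.1, 12.9 and 12.3 FPKM with DMSO. The groups are separate, and CDC7 fell by 0.63 (limma adjusted p = 0.033). Of 30 further nucleotide synthesis genes 28 are listed, with a median of -0.02. UMPS, the last enzyme of uridylate synthesis, fell by 0.41 (limma adjusted p = 0.011), and CTPS1, which makes CTP, fell by 0.26 (limma adjusted p = 0.027). MTHFD2, a mitochondrial folate enzyme, rose by 0.27 (limma adjusted p = 0.044). Of 19 further replication-coupled chromatin genes 14 are listed, with a median of -0.04. None was called by limma at the adjusted threshold, beside 8.04% of all genes. At an unadjusted limma p under 0.05 there was 1, beside 24.2% of all genes.

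Ribosome footprints of the 53 members showed no call, as for all genes. With limma, 0% of the 6777 genes passed an adjusted p of 0.05 in footprints. At an unadjusted limma p under 0.05 there were 2 members (3.77%), PRIM1 and RFC4, beside 7.82% of all genes. The median footprint difference of the members was 0.04, the same as over all genes to that precision, and 24 of 53 values were negative. That median depended on single libraries. It was 0.18 without AZD0095 replicate 1 and -0.02 without DMSO replicate 1, against 0.04 over all genes in both fits. Footprint replicate 1 was above the mean of replicates 2 and 3 for 39.6% of members with AZD0095 and 34.0% with DMSO. The same shares over all genes were 51.8% and 50.3%. AZD0095 libraries lay entirely below DMSO libraries for UHRF1, MCM2 and GINS4 (5.66%), beside 5.77% of all genes. They lay entirely above for PRIM1, LIG1 and RFC4 (5.66%), beside 7.19% of all genes. Footprint libraries were much noisier than RNA. The median within-group SD of the members on the log2 scale was 0.38 with AZD0095 and 0.61 with DMSO in footprints, against 0.08 in both groups in RNA.

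Footprints of the 6 genes called in RNA did not repeat the calls. UHRF1 had 32.3, 76.3 and 83.6 FPKM in the AZD0095 footprint libraries and 87.1, 116 and 94.9 FPKM in the DMSO footprint libraries. Its groups are separate in the same direction as in RNA, and the difference was -0.73 (95% interval -1.69 to 0.24; limma adjusted p = 0.73), or -0.30 without AZD0095 replicate 1. CCNE2 had 17.1, 45.9 and 33.6 footprint FPKM with AZD0095 and 65.9, 46.8 and 43.8 with DMSO. AZD0095 replicate 2 is above DMSO replicate 3, and the difference was -0.76 (95% interval -1.89 to 0.37), or -0.38 without AZD0095 replicate 1. CCND3 footprints were 153, 569 and 861 FPKM with AZD0095 and 409, 732 and 981 FPKM with DMSO. They vary several fold within each treatment, and the difference was -0.65 (95% interval -1.78 to 0.47). AZD0095 replicate 1 is far below the rest, and without it the difference was 0.07. CCND1 footprints were 479, 622 and 722 FPKM with AZD0095 and 396, 866 and 629 FPKM with DMSO. The DMSO values span the AZD0095 ones, and the difference was -0.00 (95% interval -0.63 to 0.62), or 0.26 without DMSO replicate 2.

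UNG and CDK2 footprints also overlapped between treatments. UNG had 189.7, 213 and 254 footprint FPKM with AZD0095 and 183, 327 and 187 with DMSO, a difference of -0.04 (95% interval -0.71 to 0.63), or 0.23 without DMSO replicate 2. CDK2 had 91.8, 119 and 94.8 footprint FPKM with AZD0095 and 95.9, 70.6 and 101 with DMSO, a difference of 0.20 (95% interval -0.58 to 0.97), or 0.081 without AZD0095 replicate 2 and 0.040 without DMSO replicate 2. The intervals of all 6 genes contain both 0 and the RNA difference, so footprint changes of the size seen in RNA were not detectable in these libraries.

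**Figure D4:**
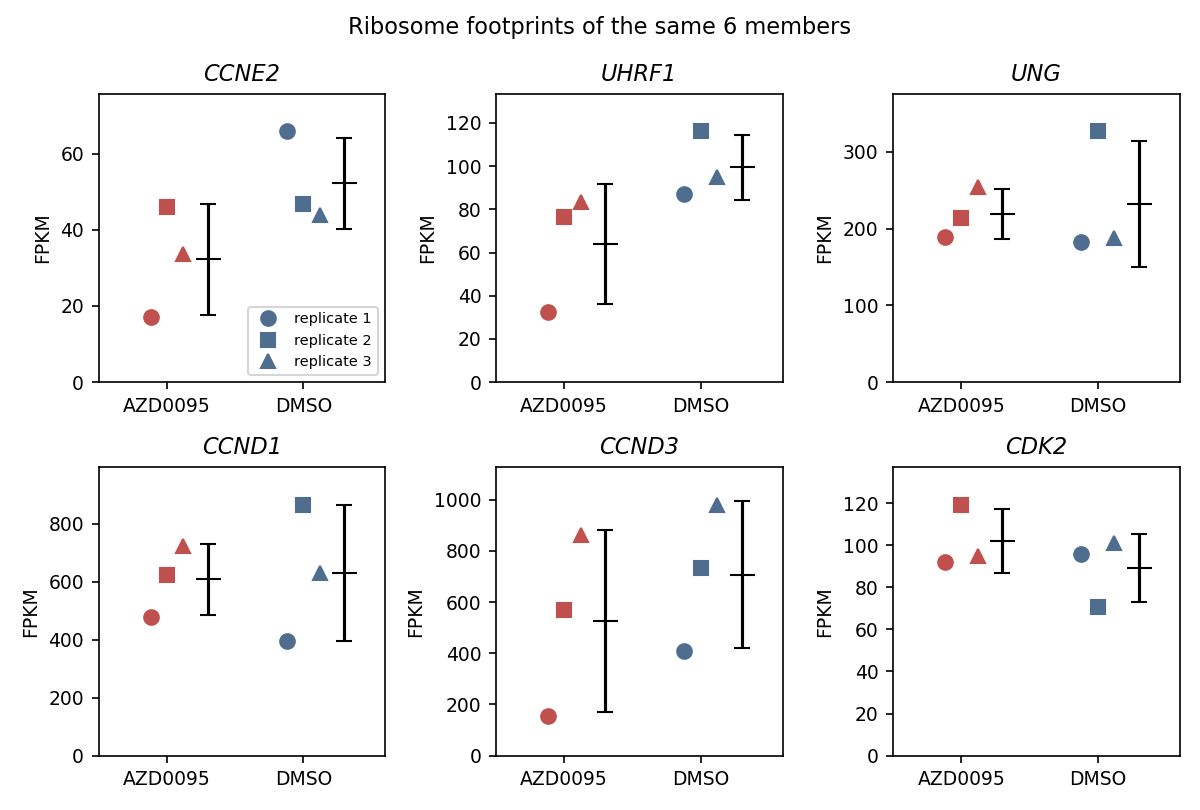
Ribosome footprints of the same 6 genes in FPKM, AZD0095 libraries left and DMSO libraries right in each panel, with replicate numbers by marker shape and the mean and SD of 3 libraries. Only in UHRF1 are all AZD0095 points below all DMSO points; the other 5 genes overlap.

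Whole reads behind the footprints could be recovered for 12 members, and they were small for some of these. PCNA, a high one, had 98, 213 and 500 reads in the AZD0095 libraries and 101, 87 and 191 in the DMSO libraries. UHRF1 had 11, 40 and 101 reads with AZD0095 and 26, 30 and 44 with DMSO. DTL had 7, 10 and 32 reads with AZD0095 and 1, 2 and 9 with DMSO, and E2F1 had 2, 3 and 7 with AZD0095 and 1, 2 and 5 with DMSO. By the implied totals, AZD0095 replicate 3 held the most reads of the 6 libraries and DMSO replicate 2 the fewest. The mean total with AZD0095 was 2.03 times that with DMSO, so these read numbers do not compare the treatments.

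The smallest footprint p-values belonged to fork and S phase genes with higher values in AZD0095. PRIM1, the catalytic subunit of primase, which lays the RNA primer, had 73.5, 57.7 and 37.9 footprint FPKM with AZD0095 and 11.8, 27.6 and 27.5 with DMSO. The groups do not overlap, and the difference was 1.34 ± 0.54 (SE, n = 3 each; limma adjusted p = 0.63). RFC4, a clamp loader subunit, had 165, 131 and 133 footprint FPKM with AZD0095 and 84.8, 55.3 and 109 with DMSO. Here too the groups are separate, with a difference of 0.82 (95% interval 0.02 to 1.62; limma adjusted p = 0.63). DTL had 23.7, 21.9 and 30.5 footprint FPKM with AZD0095 and 3.85, 8.91 and 22.3 with DMSO. DMSO replicate 3 lies within the AZD0095 values, and the difference was 1.33 (95% interval -0.07 to 2.73; limma adjusted p = 0.66), or 0.78 without DMSO replicate 1. None of the 3 can be called a change.

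Single footprint libraries set some of the values. CHAF1A footprints were 46.4, 35.6 and 22.0 FPKM with AZD0095 and 19.5, 338 and 38.7 FPKM with DMSO. The DMSO replicate 2 value is far above all others, and the other 2 DMSO values lie among or just below the AZD0095 ones. The difference was -0.93 with that library and 0.26 without it. GINS4 had 35.0, 65.6 and 76.8 footprint FPKM with AZD0095 and 80.6, 119.9 and 104 with DMSO, with separate groups and a difference of -0.82 (limma adjusted p = 0.68), or -0.49 without AZD0095 replicate 1. Its RNA differed by -0.01.

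Translational efficiency, the footprint change beyond the RNA change, was fitted as the interaction of assay and treatment over all 12 libraries. With limma, 0% of all genes and none of the members passed an adjusted p of 0.05. At an unadjusted limma p under 0.05 there were 6 members (11.3%), beside 8.53% of all genes. These were PRIM1, RFC4, RRM2, DTL, RFC2 and LIG1, all with positive values. The share over all genes counts both directions, and 261 of those 578 genes had negative values. The fit uses 1 variance per gene for both assays, although footprints were noisier than RNA. The median SE over all genes was 0.47, below the 0.51 of footprints alone, so these unadjusted p-values may be too small. RRM2, the one with the most footprints of the 6, had 575, 698 and 762 footprint FPKM with AZD0095 and 532, 514 and 616 with DMSO. Its AZD0095 replicate 1 lies between the DMSO values, and its interaction was 0.41 (limma adjusted p = 0.57). Over all members the median interaction was 0.13, against 0.03 over all genes. By role, the median was 0.57 for the 11 polymerase and maturation genes, all of them positive, and 0.23 for the clamp and loader genes. It was 0.14 for the checkpoint and chromatin genes and 0.13 for the nucleotide genes. For the licensing genes it was -0.01 and for the G1 genes -0.09. The polymerase group's median footprint SD on the log2 scale was 0.86 with DMSO and 0.35 with AZD0095. The smallest limma adjusted p of any member was 0.47, so these medians are descriptions of noisy values.

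The members covered a wide range of levels and of footprints per RNA in DMSO cells. Mean RNA ran from 6.72 FPKM for ORC2 to 258 FPKM for PCNA, both per gene length. CCND3 had the highest footprint level relative to its RNA, with a log2 ratio of 3.52 in DMSO, at percentile 98.0 of the genes tested. GINS2, at 3.50, and DUT, at 2.83, followed. DTL had the lowest ratio, -1.26, at percentile 1.51. MCM4 was next at -0.96 and E2F1 at -0.91. The ratios of DTL and E2F1 rest on few footprint reads, as given above. The top ratios rest on footprints that vary between DMSO libraries, 409, 732 and 981 FPKM for CCND3 and 232, 63.6 and 224 FPKM for GINS2.

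**Figure D5:**
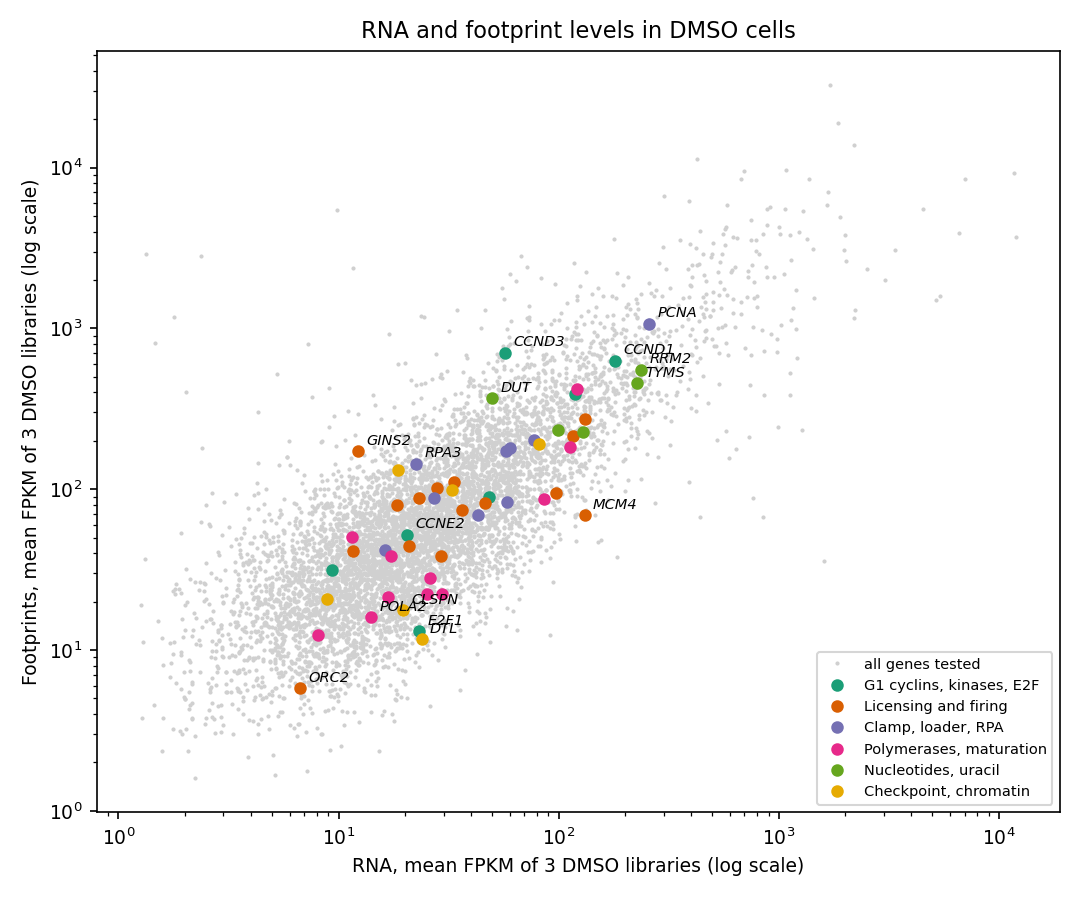
Mean RNA FPKM (x axis, log scale) and mean footprint FPKM (y axis, log scale) of 3 DMSO libraries each for all 6777 genes (grey) and the 53 members, coloured by role. CCND3 and GINS2 lie near the top of the cloud for their RNA level, and DTL, MCM4 and E2F1 near the bottom.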

How the data were processed

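RNA-seq and ribosome footprint libraries of MDA-MB-231 cells (3 AZD0095 and 3 DMSO each) were grouped by their labels. The authors deposited FPKM values for each library. The tools named, per the submitters' processing notes, are fastp, Bowtie2 and STAR, with build hg38; the sources used here give no read counter, strand setting or annotation. Each table lists 6785 entries, the lowest value is 1.002, and 8 repeated entries were removed, leaving 6777 genes; a minimum mean of 1 FPKM removed 0 more. A gene below 1 FPKM in any library is thus outside the tests.

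Values were taken as log2(FPKM + 1) and fitted with limma 3.58.1 in R 4.3.3 with a variance trend, for each assay on its 6 libraries and for translational efficiency on all 12. The threshold was an adjusted p of 0.05 (Benjamini-Hochberg over 6777 genes). The code was tested on simulated data. Intervals are 95%. Footprint reads were recovered from the FPKM values of 1424 genes (21.0%) that came out within 0.05 of whole reads in all 6 footprint libraries, at an implied length under 5000 bases; their median ran from 5 to 26.5 reads per library. That share was too low for a count test. RNA values gave no such unit.

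The members and lists were chosen with earlier results of these data known. Values in every library were given for members called and for members at an unadjusted p under 0.05 in RNA. They were also given for the largest difference and highest RNA of each role, the extremes of translational efficiency and the 3 smallest footprint p-values. The footprints of CHAF1A, GINS4 and RRM2 and the RNA of MCM2 and MCM4 were added after their values were seen. Positions and promoters are from RefSeq GRCh38.p14. Alternatives changed the pseudocount, filter, scaling, variance trend, replicate block and the libraries included.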

Additional observations from a re-analysis of the deposited data

How the results depend on the processing

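The 6 members called in RNA kept their direction in every alternative run, but the number of calls moved. Against 6 members and 545 genes in all 6 RNA libraries, leaving out 1 library at a time gave 0 to 11 members and 100 to 1112 genes. The lowest counts came without DMSO replicate 2 and the highest without AZD0095 replicate 1. Without both replicate 1 libraries, an alternative chosen after seeing the data, 11 members and 1395 genes were called. With replicate 1 as a batch, 14 members (2 higher, 12 lower) and 1660 genes (874 higher, 786 lower) were called. A replicate block gave 15 members (2 higher, 13 lower) of the 53 and 1622 genes (856 higher, 766 lower) of the 6777. With the block, CDC6, MCM2, MCM4, MCM10, RPA2, POLE2, FEN1, RRM1 and CLSPN also passed as lower. The block assumes that equal numbers pair the libraries. The deviations of same-numbered RNA libraries from their group means correlated at 0.62, 0.086 and 0.49, and AZD0095 replicate 2 correlated better with DMSO replicate 3 (0.30). Over the 53 members alone the same-numbered libraries correlated at 0.58, 0.37 and 0.41, and AZD0095 replicate 2 with DMSO replicate 3 at 0.26. As the all-gene value of pair 2 is under 0.1 and the labels state no shared batch, the libraries were not treated as paired. In footprints the same correlations were 0.009, -0.022 and 0.091, and the block gave 0 calls. The cause of these shifts was not tested. Pseudocounts of 0.1 and 0.5, a minimum mean of 5 FPKM, median centring and quantile normalization left 5 or 6 members called, and all scalings moved the median of all genes by under 0.1 on the log2 scale. For translational efficiency the fit without a variance trend called 1 gene, and leaving out 1 library called 0 to 4 genes, none of them members. Footprints had 0 calls in every alternative. Few reads limit the footprint and efficiency values of some of the 12 members with recovered reads, and reads of the other members are unknown. All values are limited by 3 libraries per group. In RNA, 11 members with small differences, none of them called, changed sign in at least 1 alternative: CDK4, ORC2, MCM5, CDC45, GINS1, GINS4, RFC3, RFC4, POLA2, POLD1 and LIG1. Their values ran from -0.17 to 0.09. Over the fits that leave out 1 footprint library, footprint differences ran from -0.30 to 0.26 for CCND1, -0.19 to 0.23 for UNG, -1.76 to 0.26 for CHAF1A and -1.17 to 0.074 for CCND3, and quantile normalization gave 0.029 for CCND1.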
